A study of Mus musculus with 8 samples.

Results

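Of the 41709 genes with a TPM (abundance of a transcript per length, scaled to the same sum in each muscle) value, the 10 described here encode the ligands of myostatin, activin and TGF-β signaling and some of their partners. They were selected by gene symbol. The ligands were *Mstn* (myostatin), *Gdf11*, *Inhba* (the βA subunit of activin A), *Tgfb1*, *Tgfb2* and *Tgfb3*. The antagonists were *Fst* (follistatin) and *Fstl3* (follistatin-like protein), the receptor was *Acvr2b* (a type II activin receptor) and the intracellular inhibitor was *Smad7*.

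Total RNA was sequenced from 8 whole tibialis anterior (TA) muscles of C57BL/6J males aged 3 months, taken 7 days after siRNAs were electroporated. *Uba1* encodes the enzyme that activates ubiquitin at the first step of ubiquitination. In each of 4 mice, one TA muscle received a SMARTpool of 4 *Uba1* siRNAs and the opposite TA muscle a pool of non-targeting (NT) siRNAs, giving 4 muscles per group. Both groups thus share the strain, the sex, the electroporation and the injection of a siRNA pool, and they differ in the siRNA target. For replicates 1 to 4 with *Uba1* siRNAs, the treatment field reads UBA1, UBA2, UBA3 and UBA4 in turn. Their titles and descriptions read UBA1 throughout, and the muscles were grouped by the titles. All muscles with NT siRNAs are marked R and all with *Uba1* siRNAs L, so the side and the siRNA cannot be told apart. The libraries hold all cells of the muscle, so that fewer cells of a type and less RNA per cell cannot be told apart either.

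Myostatin, GDF11 and activins bind type II activin receptors, which recruit type I receptors that phosphorylate SMAD2 and SMAD3. The TGF-β ligands use their own type II receptor but the same SMADs. Follistatin and FSTL3 bind myostatin, GDF11 and activins outside the cell, and SMAD7 blocks activated type I receptors together with SMURF ubiquitin ligases. Myostatin is produced mainly by skeletal muscle, where it limits muscle mass, while TGF-β ligands are better known for fibrosis and for restraint of muscle regeneration.

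The promoters of *Mstn* and *Gdf11* are shown because these genes encode the most closely related ligands among the 10 and their promoters had the lowest and the highest share of G and C among those found. The RefSeq sequences of the 250 bases before each start (GRCm38.p6) were found for 7 of the 10 genes, and the capitals mark a TATAAA motif. The *Mstn* promoter is at chr1:53061390-53061639 on the plus strand and the *Gdf11* promoter at chr10:128891719-128891968 on the minus strand.
Mstn: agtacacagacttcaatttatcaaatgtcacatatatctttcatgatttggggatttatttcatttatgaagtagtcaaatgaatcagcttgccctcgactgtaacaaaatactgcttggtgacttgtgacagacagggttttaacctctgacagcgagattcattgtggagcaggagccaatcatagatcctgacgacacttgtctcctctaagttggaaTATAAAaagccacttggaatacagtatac
Gdf11: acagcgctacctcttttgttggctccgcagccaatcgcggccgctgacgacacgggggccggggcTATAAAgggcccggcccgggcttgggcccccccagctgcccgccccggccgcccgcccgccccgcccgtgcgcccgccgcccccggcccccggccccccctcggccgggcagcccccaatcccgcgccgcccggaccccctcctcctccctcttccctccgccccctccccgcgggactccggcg
G and C made up 38.4% of the *Mstn* promoter, and 9.0% of the 32536 promoters of this length had a lower share. For *Gdf11*, G and C made up 81.2%, and 99.1% of promoters were lower (median of all promoters 52.4%). The TATAAA motif began 29 bases before the start of *Mstn* and 185 bases before that of *Gdf11*. On either strand, this motif was found in 12.3% of all promoters. The E-box CANNTG, which is the same on both strands and is bound by myogenic factors, occurred 4 times for *Mstn* and 1 time for *Gdf11* (66.2% of promoters held it). The SMAD motif CAGAC, on either strand, occurred 2 times for *Mstn* and 0 times for *Gdf11* (42.2% of promoters held it). These matches are descriptions of the letters. Overlapping matches were counted separately.

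In GRCm39, with the GENCODE M39 annotation, *Mstn* lies on chromosome 1 from 53100799 to 53107240 (plus strand), with 3 exons, and *Gdf11* on chromosome 10 from 128718164 to 128727747 (minus strand), with 3 exons. *Inhba* lies on chromosome 13 from 16186373 to 16206206 (plus strand), and *Fst* on the same chromosome from 114588731 to 114595521 (minus strand). *Fstl3* lies on chromosome 10 from 79613096 to 79618464 (plus strand) and *Acvr2b* on chromosome 9 from 119231103 to 119271213 (plus strand). *Tgfb1* lies on chromosome 7 from 25386390 to 25404506 (plus strand), *Tgfb2* on chromosome 1 from 186354985 to 186438294 (minus strand) and *Tgfb3* on chromosome 12 from 86102756 to 86126301 (minus strand).

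*Smad7* lies on chromosome 18 from 75500374 to 75529006 (plus strand). The library kit does not mark strand, so that reads from exons shared with a gene on the opposite strand cannot be assigned. Such exons made up 47.13% of the exonic bases of *Fstl3* (shared with *Prss57*), 13.15% of those of *Acvr2b* (shared with the lncRNA *4930516B21Rik*) and 10.61% of those of *Gdf11* (shared with *Sarnp*). *Mstn*, *Tgfb1* and *Smad7* shared none. Between the 10 genes themselves, 0 stretches of 50 bases were identical, the minimum length of a trimmed read.

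The knockdown was checked first. *Uba1* mRNA was at 60.6, 59.0, 63.6 and 59.1 TPM with NT siRNAs and at 18.1, 6.77, 15.8 and 23.1 TPM with *Uba1* siRNAs (replicates 1 to 4), and the groups did not overlap. The log2 fold change (log2FC) on the log2(TPM + 1) scale was -1.98 (SE 0.290, adjusted p = 0.0527 by limma without pairing, and 0.0278 with the mouse as a replicate block). The exact permutation test gave p = 0.0286 (two-sided), the smallest that 4 against 4 muscles allow. All 8 myofiber markers were at 1 TPM or more in every muscle. Of the 11530 genes tested, which reached 1 TPM in at least 4 of the 8 muscles, 81.8% had a log2FC above 0 and the median was 0.106. With median-ratio scaling these values were 48.0% and -0.0055. Because 1 was added to each TPM, the log2FC of a gene at low TPM is closer to 0 than its true ratio.

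The 10 genes spanned a wide range of levels. *Mstn* (mean of all 8 muscles 28.6 TPM) and *Tgfb3* (27.9 TPM) were the most abundant, above 82.1% and 81.7% of the genes tested. *Mstn* exceeded *Tgfb3* in 3 of 8 muscles, so that their order is not resolved. *Tgfb2* (8.17 TPM), *Gdf11* (6.81 TPM), *Smad7* (4.63 TPM), *Tgfb1* (3.70 TPM) and *Acvr2b* (2.83 TPM) followed. *Fst* (1.53 TPM) and *Fstl3* (1.25 TPM) were low, and *Inhba* was at 0.513 TPM. Neighbors in this order overlapped in their ranges over the 8 muscles, with the exception of *Tgfb3* over *Tgfb2* and of *Fstl3* over *Inhba*, where all 8 muscles kept the order. TPM are per length, so these levels can be compared between genes. *Gdf11* varied most, with a highest value 2.53 times its lowest, and *Tgfb2* least, with 1.30 times.

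**Figure D1:**
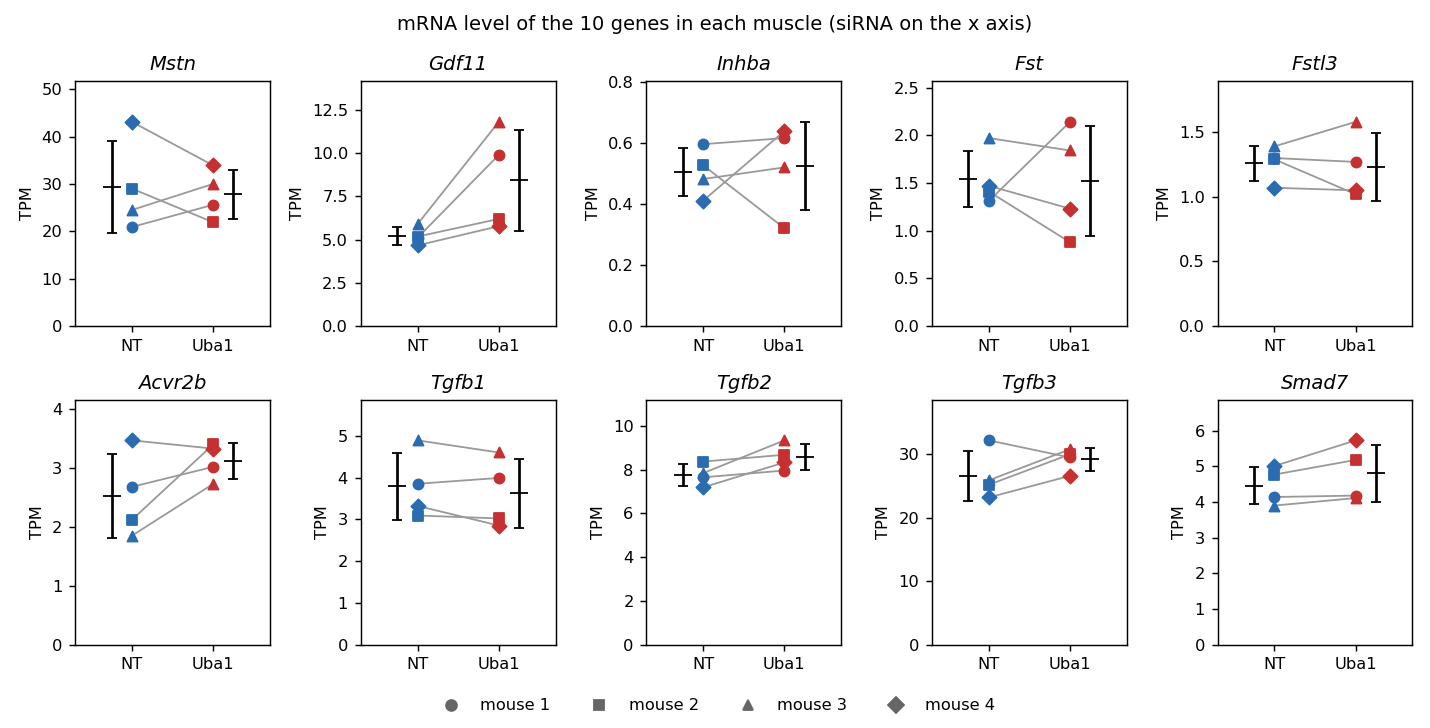
mRNA level (TPM, linear axis from 0) of each of the 10 genes in the muscles with NT siRNAs (blue) and *Uba1* siRNAs (red). Lines join the 2 muscles of a mouse, marker shapes give the mouse, and black bars show the mean ± SD of 4 muscles. In all 4 mice *Gdf11* was higher with *Uba1* siRNAs, by unequal amounts, while *Mstn* was higher in 2 mice and lower in 2.

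None of the 9 genes tested passed an adjusted p of 0.05 (limma, Benjamini-Hochberg over all 11530 genes), where 0.026% of all genes passed. With the replicate block the count was also 0, where 0.494% of all genes passed. *Gdf11* was the only one of the 9 with an unadjusted p under 0.05, and it was higher with *Uba1* siRNAs (16% of all genes were higher at that threshold). None was lower at that threshold, which 1.98% of all genes were. With the replicate block *Gdf11* alone was higher (22.4% of all genes) and none was lower (2.8% of all genes). With median-ratio scaling, again *Gdf11* alone was higher (3.9% of all genes) and none was lower (6.7% of all genes). Higher in all 4 mice were *Gdf11*, *Tgfb2* and *Smad7*, 3 of the 9 (32.2% of all genes), and none was lower in all 4 mice (2.98% of all genes). The groups overlapped for all 9, whereas 11.6% of all genes had groups that did not overlap. The median log2FC of the 9 was 0.084, beside 0.106 for all genes tested. With median-ratio scaling, it was -0.021. *Inhba* stayed below the limit on low values and was not in the fit.

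**Figure D2:**
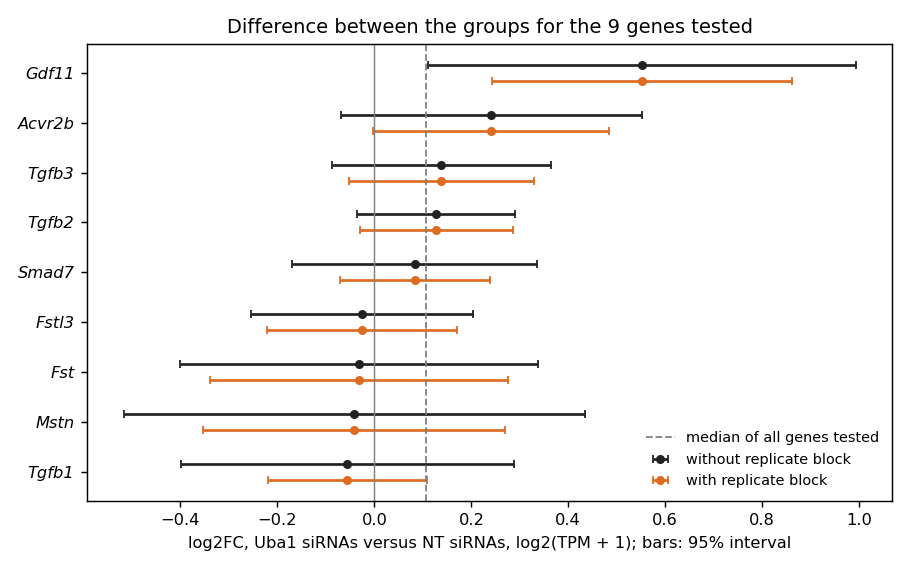
Difference between the groups as log2FC on the log2(TPM + 1) scale (*Uba1* siRNAs versus NT siRNAs) for the 9 genes in the fit, with 95% intervals without (black) and with (orange) the replicate block. The dashed line is the median of all genes tested, 0.106. The interval lies above 0 in both fits for *Gdf11*, from 0.111 to 0.993 without the block, and it includes 0 for the other 8.

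*Mstn*, the main brake on muscle mass, was at 20.9, 29.0, 24.5 and 43.1 TPM with NT siRNAs (replicates 1 to 4). With *Uba1* siRNAs it was at 25.6, 21.9, 30.0 and 33.9 TPM. The values with *Uba1* siRNAs lay within the range of those with NT siRNAs, and replicate 4 was highest in both groups. The means were 29.4 ± 9.72 and 27.8 ± 5.24 TPM (SD, n = 4 muscles each), and the log2FC was -0.04 (SE 0.211, 95% interval -0.517 to 0.434, adjusted p = 0.924 by limma). Per mouse, the ratio of *Uba1* siRNAs to NT siRNAs was 1.22, 0.756, 1.22 and 0.788. It was thus higher in 2 mice and lower in 2, and a change in one direction was not detectable.

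*Gdf11*, the closest relative of myostatin, differed most among the 10. Its level was 5.10, 5.17, 5.89 and 4.66 TPM with NT siRNAs (replicates 1 to 4). With *Uba1* siRNAs it was 9.89, 6.19, 11.8 and 5.77 TPM. All muscles with NT siRNAs were close together, whereas with *Uba1* siRNAs replicates 1 and 3 stood well above replicates 2 and 4. The groups overlapped through *Uba1* replicate 4, which was below NT replicate 3. The means were 5.21 ± 0.507 and 8.42 ± 2.93 TPM (SD, n = 4 each), and the coefficient of variation was 9.74% with NT siRNAs and 34.8% with *Uba1* siRNAs. The log2FC was 0.55 (SE 0.196, 95% interval 0.111 to 0.993). The p from limma without pairing was 0.0195 before adjustment and 0.209 after it. With the replicate block the p from limma was 0.00379 before adjustment and 0.096 after it (SE 0.132). The exact permutation test, also without pairing, gave p = 0.0571 (two-sided). *Gdf11* therefore did not pass an adjusted p of 0.05 with or without the block, although it was higher in 4 of 4 mice. Without *Uba1* replicate 1 the log2FC was 0.47, and the unadjusted p without the block was no longer under 0.05.

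The size of the *Gdf11* difference varied between mice. The ratio of *Uba1* siRNAs to NT siRNAs was 1.94 in mouse 1, 1.20 in mouse 2, 2.01 in mouse 3 and 1.24 in mouse 4. Mice 1 and 3 had large differences and mice 2 and 4 small ones. In the same mice, all tested genes together differed by unequal amounts, with 83.3%, 56.1%, 81.8% and 61.8% of genes higher with *Uba1* siRNAs (mice 1 to 4). The median log2 difference of all genes was 0.187, 0.030, 0.152 and 0.044. Within this spread, the *Gdf11* difference exceeded that of 98.8%, 80.9%, 99.6% and 88.4% of the genes tested. The mitochondrial share of the TPM was 45.7%, 43.9%, 42.1% and 43.2% with NT siRNAs, and 40.2%, 50.3%, 39.9% and 46.5% with *Uba1* siRNAs, lower with *Uba1* siRNAs in mice 1 and 3 and higher in mice 2 and 4. With TPM rescaled without mitochondrial genes the log2FC of *Gdf11* was 0.60 (adjusted p = 0.125 by limma). Beyond this rescaling, the part of this share in the *Gdf11* difference was not tested. With median-ratio scaling the log2FC of *Gdf11* was 0.44 (SE 0.152, unadjusted p = 0.0182, adjusted p = 0.336 by limma). *Sarnp*, which shares exons with *Gdf11* and encodes an RNA-binding protein, had ratios of 1.18, 1.14, 0.979 and 0.888 in mice 1 to 4, with levels from 32.0 to 41.2 TPM. Both genes were higher with *Uba1* siRNAs in mice 1 and 2, and *Sarnp* was lower in mice 3 and 4. The part of reads from the shared exons in the *Gdf11* difference was not tested.

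**Figure D3:**
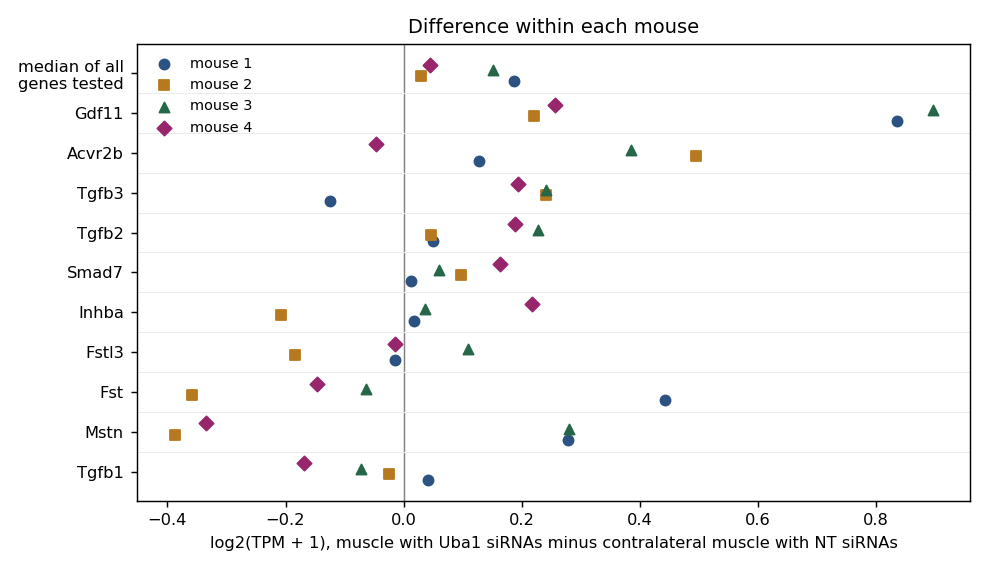
Difference within each mouse (muscle with *Uba1* siRNAs minus contralateral muscle with NT siRNAs, log2(TPM + 1) scale) for the 10 genes and for the median of all genes tested. Marker shapes and colors give the mouse. For *Gdf11*, mice 1 and 3 sit at 0.836 and 0.896, and mice 2 and 4 at 0.221 and 0.257, while *Mstn* lies on both sides of 0.

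*Inhba*, which encodes the subunit that forms activin A, was under 1 TPM in every muscle. It was at 0.595, 0.526, 0.481 and 0.410 TPM with NT siRNAs and at 0.615, 0.320, 0.519 and 0.638 TPM with *Uba1* siRNAs. The groups overlapped, and *Uba1* replicate 2 was lowest of all muscles. The mean log2(TPM + 1) differed by 0.02 (exact permutation test, two-sided, p = 0.829). The number of reads behind such values is unknown.

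None of the 3 TGF-β ligands passed the test. *Tgfb1*, the form best known in fibrosis, was at 3.85, 3.09, 4.89 and 3.32 TPM with NT siRNAs and at 3.99, 3.02, 4.60 and 2.85 TPM with *Uba1* siRNAs. The 2 legs of each mouse were close, and mouse 3 was highest in both groups. The log2FC was -0.06 (SE 0.152, 95% interval -0.398 to 0.287, adjusted p = 0.848 by limma). *Tgfb2* was at 7.65, 8.37, 7.84 and 7.19 TPM with NT siRNAs and at 7.96, 8.68, 9.34 and 8.33 TPM with *Uba1* siRNAs. It was higher in 4 of 4 mice, by ratios of 1.04 to 1.19, with overlapping groups. Its log2FC was 0.13 (SE 0.0725, 95% interval -0.035 to 0.291, adjusted p = 0.359). *Tgfb3* was at 32.2, 25.2, 25.9 and 23.2 TPM with NT siRNAs and at 29.5, 30.0, 30.8 and 26.6 TPM with *Uba1* siRNAs. It was lower in mouse 1 and higher in the other mice. The log2FC was 0.14 (SE 0.10, 95% interval -0.088 to 0.364, adjusted p = 0.456). Both values were close to the median of all genes, and both were 0.01 with median-ratio scaling.

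Neither antagonist passed the test, and each overlapped between the groups. *Fst*, which neutralizes activins and myostatin, was at 1.31, 1.41, 1.97 and 1.47 TPM with NT siRNAs and at 2.14, 0.878, 1.84 and 1.23 TPM with *Uba1* siRNAs. Both the highest and the lowest muscle had received *Uba1* siRNAs, and *Fst* was higher in mouse 1 only. The log2FC was -0.03 (SE 0.164, 95% interval -0.400 to 0.337, adjusted p = 0.926 by limma). *Fstl3*, a relative of follistatin, was at 1.30, 1.29, 1.39 and 1.07 TPM with NT siRNAs and at 1.27, 1.02, 1.58 and 1.05 TPM with *Uba1* siRNAs. Mouse 3 was highest in both groups. Its log2FC was -0.03 (SE 0.101, 95% interval -0.254 to 0.203, adjusted p = 0.90). *Prss57*, with which *Fstl3* shares exons, was at 0.0446 TPM or less in all muscles.

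*Acvr2b*, the receptor with high affinity for myostatin, was at 2.68, 2.12, 1.85 and 3.47 TPM with NT siRNAs and at 3.02, 3.40, 2.73 and 3.33 TPM with *Uba1* siRNAs. It was higher in 3 of 4 mice, most in mouse 2 (ratio 1.6) and mouse 3 (ratio 1.47), and lower in mouse 4 (ratio 0.960). The muscle with the highest level had received NT siRNAs, so the groups overlapped. The log2FC was 0.24 (SE 0.138, 95% interval -0.069 to 0.551, adjusted p = 0.363 by limma).

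*Smad7*, which is itself induced by TGF-β signaling, was at 4.14, 4.77, 3.90 and 5.01 TPM with NT siRNAs and at 4.18, 5.18, 4.11 and 5.73 TPM with *Uba1* siRNAs. It was higher in 4 of 4 mice by ratios of 1.01 to 1.14, less than the spread between mice within a group. The log2FC was 0.08 (SE 0.112, 95% interval -0.169 to 0.336, adjusted p = 0.687 by limma). With median-ratio scaling it was -0.02, so that its sign depended on the scaling.

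The other genes of the pathway were described by role from a list of 133 genes, of which 93 were tested. None passed an adjusted p of 0.05 without the block (0.026% of all genes), and 1 higher (*Lox*) and 1 lower (*Tgif1*) passed with it (0.494% of all genes). At an unadjusted p under 0.05, 17 were higher and 6 lower, where 16% and 1.98% of all genes were. With median-ratio scaling, 2 were higher and 11 lower (3.9% and 6.7% of all genes). With the replicate block, the counts were 26 higher and 9 lower (22.4% and 2.8% of all genes). The median log2FC of the 93 was 0.143 (0.031 with median-ratio scaling), beside 0.106 for all genes tested. Of the 40 genes below the limit on low values, 7 were listed at 0 TPM in all 8 muscles.

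**Figure D4:**
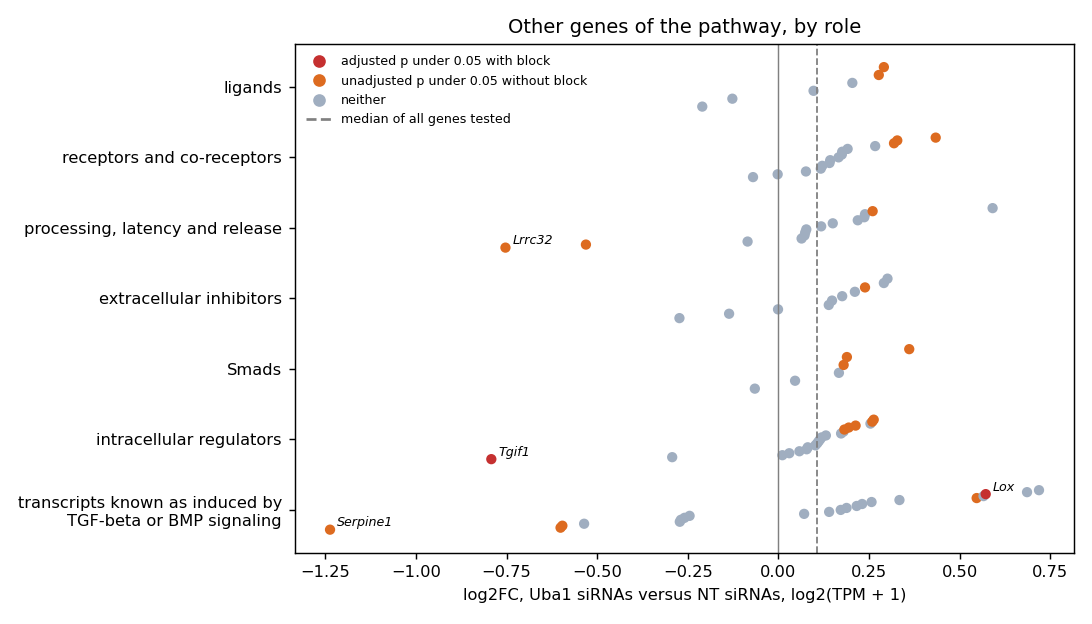
log2FC (*Uba1* siRNAs versus NT siRNAs, log2(TPM + 1) scale) of the 93 tested genes of the pathway list, by role, 1 point per gene. Red points passed an adjusted p of 0.05 with the replicate block, orange points an unadjusted p of 0.05 without it, and the dashed line is the median of all genes tested. Right of 0 were 72 of 93 points, beside 81.8% of all genes tested, and with median-ratio scaling 55 of 93, beside 48.0% of all genes.

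Among the other ligands, 20 of 26 were below the limit on low values, and of the 6 tested 2 were higher and none lower at an unadjusted p under 0.05 (16% and 1.98% of all genes). With median-ratio scaling 0 were higher and 1 (*Bmp2*) lower (3.9% and 6.7% of all genes), and with the replicate block the counts were 3 higher and 1 lower (22.4% and 2.8% of all genes). *Bmp5*, a bone morphogenetic protein (BMP), was at 6.43 ± 0.556 TPM with NT siRNAs and 8.0 ± 0.656 TPM with *Uba1* siRNAs (SD, n = 4 each, as for all means that follow), with a log2FC of 0.28 (adjusted p = 0.174). *Bmp4* was at 3.65 ± 0.594 and 4.69 ± 0.811 TPM (log2FC 0.29, adjusted p = 0.258). *Bmp2* was at 1.45 ± 0.270 and 1.11 ± 0.0895 TPM (log2FC -0.21, adjusted p = 0.284) and was lower in 4 of 4 mice. Among the BMPs the values thus lay on both sides of 0.

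Of 17 receptors and co-receptors, 15 were tested, and 3 were higher and none lower at an unadjusted p under 0.05 (16% and 1.98% of all genes). With median-ratio scaling 1 was higher and 0 lower (3.9% and 6.7% of all genes). With the replicate block the counts were 4 higher and 0 lower (22.4% and 2.8% of all genes). *Acvr2a*, a type II activin receptor as *Acvr2b* is, was at 8.51 ± 0.809 TPM with NT siRNAs and 10.9 ± 1.73 TPM with *Uba1* siRNAs (log2FC 0.32, adjusted p = 0.208). *Bmpr2*, for BMPs, was at 6.94 ± 0.814 and 8.96 ± 0.959 TPM (log2FC 0.33, adjusted p = 0.174). *Amhr2*, for anti-Müllerian hormone, was at 5.28 ± 0.720 and 7.59 ± 1.87 TPM (log2FC 0.43, adjusted p = 0.205). With median-ratio scaling the unadjusted p of *Acvr2a* was 0.0368, that of *Bmpr2* 0.0527 and that of *Amhr2* 0.0641.

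Genes that process or hold latent TGF-β were 19, with 14 tested, 1 higher and 2 lower at an unadjusted p under 0.05 (16% and 1.98% of all genes). With median-ratio scaling 0 were higher and 2 lower (3.9% and 6.7% of all genes), and with the replicate block the counts were 2 higher and 1 lower, without *Thbs1* (22.4% and 2.8% of all genes). *Lrrc32* encodes GARP, which tethers latent TGF-β to the cell surface. It was at 10.8, 9.19, 6.07 and 8.23 TPM with NT siRNAs and at 4.47, 4.30, 4.42 and 5.19 TPM with *Uba1* siRNAs. The groups did not overlap, and all muscles with *Uba1* siRNAs were alike. The log2FC was -0.75 (SE 0.143, unadjusted p = 0.000471, adjusted p = 0.111 by limma, and adjusted p = 0.0560 with the replicate block). *Thbs1*, whose product can activate latent TGF-β, was at 31.1 ± 8.90 and 21.0 ± 5.30 TPM (log2FC -0.53, adjusted p = 0.267). *Ltbp3*, a latent TGF-β binding protein, was at 15.3 ± 0.720 and 18.7 ± 3.09 TPM (log2FC 0.26, adjusted p = 0.256).

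Of 20 listed inhibitors that bind ligands or their precursors, 10 were tested, and 1 was higher and none lower at an unadjusted p under 0.05 (16% and 1.98% of all genes). With median-ratio scaling none was higher and 1 lower (3.9% and 6.7% of all genes). The lower one was *Twsg1*, a modulator of BMPs (log2FC -0.26, unadjusted p = 0.00089, adjusted p = 0.116 by limma). With the replicate block the counts were 4 higher and 0 lower (22.4% and 2.8% of all genes). *Dand5*, an antagonist of Nodal, was at 10.8 ± 0.814 TPM with NT siRNAs and 12.9 ± 0.90 TPM with *Uba1* siRNAs (log2FC 0.24, adjusted p = 0.182). *Wfikkn2*, which binds myostatin and GDF11, was at 7.57 ± 1.51 and 9.38 ± 1.00 TPM (log2FC 0.29, adjusted p = 0.298). *Tcap* encodes a protein of the sarcomere that also binds myostatin inside the fiber. It was at 3800 ± 845 and 4650 ± 797 TPM (log2FC 0.30, adjusted p = 0.346).

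Of the 7 other SMAD genes 6 were tested, and *Smad2*, *Smad3* and *Smad5* were higher and none lower at an unadjusted p under 0.05 (16% and 1.98% of all genes). With the replicate block the counts were 3 higher and 0 lower (22.4% and 2.8% of all genes). SMAD2 and SMAD3 carry the signals of myostatin, activin and TGF-β to the nucleus, and SMAD5 those of BMPs. *Smad2* was at 3.05 ± 0.114 TPM with NT siRNAs and 3.59 ± 0.203 TPM with *Uba1* siRNAs (log2FC 0.18, adjusted p = 0.222), without overlap of the groups. *Smad3* was at 46.3 ± 9.05 and 59.4 ± 7.82 TPM (log2FC 0.36, adjusted p = 0.231). *Smad5* was at 9.37 ± 0.591 and 10.8 ± 0.996 TPM (log2FC 0.19, adjusted p = 0.260). With median-ratio scaling none of these 3 was under 0.05, with unadjusted p of 0.245, 0.113 and 0.316, and 1 other SMAD gene, *Smad1*, was lower (log2FC -0.17, unadjusted p = 0.0378), where 3.9% of all genes were higher and 6.7% lower.

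Intracellular regulators were 23, with 21 tested, 5 higher and 1 lower at an unadjusted p under 0.05 (16% and 1.98% of all genes). With median-ratio scaling 0 were higher and 1 (*Tgif1*) lower (3.9% and 6.7% of all genes). With the replicate block the counts were 6 higher and 2 lower (22.4% and 2.8% of all genes). *Tgif1* encodes a corepressor of SMAD2 and SMAD3. It was at 5.21, 8.79, 7.16 and 8.72 TPM with NT siRNAs and at 3.00, 3.50, 4.02 and 4.94 TPM with *Uba1* siRNAs. The groups did not overlap, and *Tgif1* was lower in 4 of 4 mice. The log2FC was -0.79 (SE 0.168, adjusted p = 0.129 by limma), and with the replicate block the adjusted p was 0.0288. *Map3k7*, the kinase TAK1, was at 25 ± 0.328 and 28.5 ± 1.00 TPM (log2FC 0.18, adjusted p = 0.174). *Smurf2*, a ubiquitin ligase that works with SMAD7, was at 9.38 ± 0.593 and 10.9 ± 0.788 TPM (log2FC 0.19, adjusted p = 0.231). With median-ratio scaling the unadjusted p of *Map3k7* was 0.443 and that of *Smurf2* 0.307.

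All 21 transcripts listed as known to be induced by TGF-β or BMP signaling were tested, with 2 higher and 3 lower at an unadjusted p under 0.05 (16% and 1.98% of all genes). With median-ratio scaling 1 was higher and 5 lower (3.9% and 6.7% of all genes), and with the replicate block the counts were 4 higher and 5 lower (22.4% and 2.8% of all genes). *Lox* encodes lysyl oxidase, which cross-links collagen. It was at 6.32, 4.28, 6.88 and 5.09 TPM with NT siRNAs and at 9.36, 7.76, 9.34 and 8.65 TPM with *Uba1* siRNAs. The groups did not overlap, and *Lox* was higher in 4 of 4 mice. The log2FC was 0.57 (SE 0.127, adjusted p = 0.137 by limma), and with the replicate block the adjusted p was 0.0390. With the block and median-ratio scaling together it did not pass (log2FC 0.46, adjusted p = 0.113). *Id1*, a BMP target that inhibits basic helix-loop-helix factors, was at 48.7 ± 3.82 and 33.0 ± 11.1 TPM (log2FC -0.60, adjusted p = 0.184). *Cdkn1a*, the cell cycle inhibitor p21, was at 25.3 ± 5.57 and 16.7 ± 5.57 TPM (log2FC -0.60, adjusted p = 0.241).

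Markers of cell types that make or receive these ligands are given here because the libraries were of whole muscle. None of these markers passed an adjusted p of 0.05, and none was at 0 in all muscles. The summed TPM of 8 myofiber markers was 125000 to 138000 with NT siRNAs and 96000 to 139000 with *Uba1* siRNAs. For 8 fibroblast and fibro-adipogenic markers the sums were 682 to 930 and 635 to 1070 TPM, with ratios of 1.11, 0.836, 1.15 and 1.10 in mice 1 to 4. For 7 markers of satellite cells and myoblasts they were 64.1 to 117 and 40.7 to 115 TPM, and for 8 of macrophages and other leukocytes 18.6 to 42.5 and 14.8 to 47.3 TPM. Those of 7 endothelial markers were 112 to 171 and 124 to 161 TPM, and those of 5 pericyte and smooth muscle markers 211 to 261 and 218 to 246 TPM. The sums were 102 to 236 and 152 to 231 TPM for 6 tenocyte markers, and 42.0 to 66.5 and 32.5 to 76.8 TPM for 5 Schwann cell markers. These ranges overlapped.

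The 6 bone and cartilage markers summed to 1.18 to 4.92 TPM with NT siRNAs and 4.24 to 29.2 TPM with *Uba1* siRNAs, with ratios of 0.861, 22.5, 2.72 and 9.34 in mice 1 to 4. None of the 6 was at 1 TPM or more in every muscle, so these ratios rest on low values. Of the 6, *Bglap* and *Ibsp* were tested, and both were higher at an unadjusted p under 0.05 (16% of all genes). A gene can enter the test through the muscles of a single group, where it is high. In mice 1 to 4 the ratio of the summed myofiber markers was 1.01, 0.741, 1.03 and 0.82, and that of the macrophage and leukocyte markers 1.61, 0.5, 1.11 and 0.893. The Schwann cell markers had ratios of 1.16, 0.69, 1.63 and 0.676, and the satellite cell and myoblast markers 1.39, 0.636, 0.777 and 0.892. For endothelial markers the ratios were 0.822, 0.989, 1.11 and 1.10, and for pericyte and smooth muscle markers 0.838, 1.04, 1.15 and 1.05. The ratios of the myofiber, leukocyte, Schwann cell and fibroblast sums were higher in mice 1 and 3 than in mice 2 and 4, as were those of *Gdf11* (1.94, 1.20, 2.01 and 1.24), and those of the other lists were not. The tenocyte sum had ratios of 0.98, 1.5, 1.28 and 1.28. A log2FC above 0 was found for 4 of 5 tenocyte markers tested (median 0.222), 6 of 8 fibroblast markers (median 0.164) and 4 of 5 pericyte and smooth muscle markers (median 0.101), beside 81.8% of all genes (median 0.106). It was found for 1 of 8 myofiber markers (median -0.137), 2 of 7 satellite cell and myoblast markers (median -0.386), 3 of 7 endothelial markers (median -0.014), 2 of 4 leukocyte markers (median 0.043) and 2 of 4 Schwann cell markers (median 0.083). Of these lists, the tenocyte and the fibroblast markers each held 1 gene at an unadjusted p under 0.05, and the others held 0. Among all genes, 16% were higher and 1.98% lower at that threshold. The part of any of these cells in the differences of *Gdf11*, the BMPs and *Lox* was not tested.

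Over the 8 muscles, the genes whose log2(TPM + 1) followed *Mstn* most closely were *Eif2s2* (Pearson r = 0.967, Spearman rho = 0.952), *Pfkfb4* (r = 0.967, rho = 0.952) and *Sfpq* (r = 0.962, rho = 0.952). For *Tgfb1* they were *C77080* (r = 0.975, rho = 0.952), *Armcx3* (r = 0.971, rho = 0.976) and *Fzd10* (r = 0.968, rho = 0.881). Among 11529 genes compared, 22 had r over 0.9 with *Mstn* and 130 with *Tgfb1*. These correlations describe 8 muscles of both groups that come from 4 mice, and many genes were compared, so no p is given.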

How the data were processed

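RNA was extracted with TRIzol from whole TA muscles and sequenced as 100-base paired-end Illumina reads from TruSeq libraries, a kit that does not mark strand. The authors trimmed the reads to a Phred score of at least 20 and a length of at least 50 bases, used CLC Genomics Workbench 20.0.4 for alignment to GRCm39 and for quantification, and deposited the TPM of 41709 genes in 8 muscles. The annotation used and the treatment of reads that match several genes are not given in the sources used here. In the deposited table, 0 columns of values were left without a sample. TPM keep no number of reads, so the depth is unknown, no counting interval is given, and the number of muscles limits the precision. The study itself used non-parametric tests (Kruskal-Wallis, Dunn) of log TPM.

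The 10 genes, the pathway list, the marker lists and the tests were chosen with earlier results of these data known. The 11530 genes that reached 1 TPM in 4 or more of 8 muscles were tested on log2(TPM + 1) with limma 3.58.1 (lmFit, eBayes with a trend) in R 4.3.3, without covariates, and adjusted with the Benjamini-Hochberg method over all genes tested. For single values, exact permutation tests were run in scipy 1.17.1 (Python 3.11.15). All tests were two-sided. On simulated data for *Uba1* siRNAs against NT siRNAs (11530 genes), limma called 92% of 100 genes shifted by 1 log2 unit and 99% of 100 genes shifted by 2. False calls made up 3.54%, and a simulation without shifted genes gave 0 calls. Recovery of smaller shifts, such as the log2FC of 0.552 of *Gdf11*, was not tested. In the 8 muscles, *Uba1* had a log2FC of -1.977 and an adjusted p of 0.0527 by limma without the block. These percentages therefore do not give the share of real differences that limma would find in the muscles.

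Same-numbered muscles are the 2 legs of a mouse, by the titles and the study's methods, so the numbers pair the samples by design. Over 11530 genes, deviations from the group mean correlated within pairs by -0.000368, 0.201, 0.584 and 0.537 for replicates 1 to 4. The 4 replicates of a group come from separate mice. The genes named were the 10 members, *Uba1*, each gene of the pathway list with an adjusted p under 0.05 with or without the replicate block, the 3 genes of each role with the smallest p, the 3 genes most correlated with *Mstn* and with *Tgfb1*, and marker genes. *Sarnp* and *Prss57* were added because they share exons with members, and *Bglap*, *Ibsp*, *Twsg1* and *Smad1* were named after their values were seen.

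The alternatives were a pseudocount of 0.1, no filter, a mean of at least 5 TPM, quantile normalization, median-ratio scaling, TPM without mitochondrial genes, the replicate block with and without median-ratio scaling, the Kruskal-Wallis test and leaving out each muscle. Promoters and their positions are from RefSeq (GRCm38.p6), and gene positions from GENCODE M39 (GRCm39).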

Additional observations from a re-analysis of the deposited data

Results flagged for a closer look

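For each of the 10 genes in each group of 4 muscles, the gap between the highest or lowest muscle and its neighbor was compared with Dixon's 95% limit. None of the 20 groups held a muscle beyond it, where chance would give about 1.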

How the results depend on the processing

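In each of the 17 alternatives, 0 of the ligand, antagonist, receptor and *Smad7* genes that were tested passed an adjusted p of 0.05, and *Gdf11* was higher with *Uba1* siRNAs (log2FC 0.386 to 0.694, adjusted p from 0.096 to 0.410 by limma or the Kruskal-Wallis test). The Kruskal-Wallis test passed 0 of all genes, and its adjusted p for *Uba1* was 0.18. With so few muscles per group, its count of 0 for these genes was fixed in advance. The log2FC of *Gdf11* stayed at 0.552 with no filter, a mean of at least 5 TPM, the replicate block and the Kruskal-Wallis test by construction. A mean of at least 5 TPM left *Inhba*, *Fst*, *Fstl3*, *Acvr2b*, *Tgfb1* and *Smad7* untested. The number of those tested at an unadjusted p under 0.05 was 1, and 0 to 2 when a muscle was left out, with 0 without *Uba1* replicate 1, and 2 without NT replicate 1 (*Gdf11* and *Tgfb3*) or NT replicate 4 (*Gdf11* and *Acvr2b*). It was 2 with the replicate block and median-ratio scaling, when *Tgfb1* joined *Gdf11* (log2FC -0.159, unadjusted p = 0.0409, adjusted p = 0.294 by limma). By the exact permutation test, run for all 10, 0 were under 0.05, and 1 (*Gdf11*) was with TPM rescaled without mitochondrial genes. No share of all genes under 0.05 was computed with a muscle left out, with block and scaling together, or for the permutation test.

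*Smad7* changed sign with median-ratio scaling (-0.021, with or without the replicate block) and with quantile normalization (-0.030). When a muscle was left out, the log2FC ranged from -0.182 to 0.155 for *Mstn*, from -0.147 to 0.101 for *Fst*, from -0.098 to 0.020 for *Fstl3* and from -0.155 to 0.049 for *Tgfb1*, with both signs. The cause was not tested.

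Among all genes, 3 passed, and 11 with a mean of at least 5 TPM, 28 with median-ratio scaling, 28 with quantile normalization, 13 without mitochondrial genes, 57 with the replicate block, 82 with the block and median-ratio scaling, 0 by the Kruskal-Wallis test, and 2 to 39 when a muscle was left out (39 without *Uba1* replicate 4, 6 without NT replicate 1, 5 without NT replicate 3 or *Uba1* replicate 2). Of the pathway list 0 passed, 2 with the replicate block, 1 with the block and median-ratio scaling (*Tgif1*, adjusted p = 0.0128), and 0 to 1 when a muscle was left out (*Lrrc32*, without NT replicate 3). The log2FC of *Uba1* was -1.977, with an adjusted p of 0.0527, and 0.0466 at a mean of at least 5 TPM, 0.0666 with a pseudocount of 0.1, 0.131 without a filter and 0.18 by the Kruskal-Wallis test. It was -2.102 (0.0317) with median-ratio scaling, -2.061 (0.0376) with quantile normalization, -1.996 (0.0486) without mitochondrial genes, -1.977 (0.0278) with the replicate block, -2.102 (0.0249) with the block plus median-ratio scaling, and -2.184 to -1.640 when a muscle was left out (0.00257 without *Uba1* replicate 2 and 0.0206 without *Uba1* replicate 4, and 0.0838 to 0.23 without any of the other 6). The block changed no other call at an adjusted p of 0.05 among the genes named.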
